A study of Homo sapiens with 2 samples.

Results

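The wells compared here hold K562 cells treated with a pan-HDAC inhibitor, either Panobinostat or Quisinostat, or with the BET inhibitor JQ1. They were chosen by the compound name in the deposited well annotation: 4 HDAC inhibitor wells (1 Panobinostat and 1 Quisinostat position on each of 2 plates) and 6 JQ1 wells (3 positions on each plate), 10 of the 192 wells in all. K562 is an established human chronic myeloid leukaemia line with erythroid features. Every well, the DMSO vehicle wells included, was harvested after 6 h, and its mRNA 3′ ends were counted by MAC-seq, a method in which each well receives its own barcode before the wells of a plate are pooled. The 24 DMSO wells give the vehicle level, 16 of them outside the first plate column and 8 within it. The annotation gives no doses, so the compounds could not be matched by dose, and the plates are technical duplicates of 1 layout, so that every p-value measures only the spread between wells.

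Histone deacetylases (HDACs) remove acetyl groups from lysines of histones and other proteins, and BET proteins such as BRD2 and BRD3 bind acetylated lysines through their bromodomains and help RNA polymerase II elongate. Panobinostat and Quisinostat are hydroxamates that block the catalytic zinc of many HDACs, so acetylation builds up. JQ1 fills the acetyl-lysine pocket of BET bromodomains and displaces the readers from chromatin. The comparison therefore sets a block of acetyl removal against a block of acetyl reading in the same cells.

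The HDAC inhibitor wells held 621499 to 949814 human counts. JQ1 well 22, outside the first column, held 743691 and 1009180 counts on the 2 plates, while the 4 JQ1 wells of the first column held 224480 to 291109. No HDAC inhibitor well lay in the first column, so the comparison was run once with all 6 JQ1 wells and once with well 22 alone. The human to ERCC spike-in count ratio was 4.48 to 5.27 in HDAC inhibitor wells, 4.94 and 5.16 in JQ1 well 22 and 2.68 to 4.45 in first-column JQ1 wells. Fewer cells and less RNA per cell cannot be told apart in such a ratio. The K562 markers were present: all 10 were detected in both groups, with summed levels of 27430 to 29723 CPM (counts scaled to a common library total) under HDAC inhibitors and 23853 to 28291 CPM under JQ1. Of 12 lymphoid, monocyte and epithelial markers, CD3E, MS4A1 and CD163 were at 0 in all 10 wells, and the list summed to 429 to 547 CPM under HDAC inhibitors and 358 to 459 CPM under JQ1.

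Set directly against JQ1, the HDAC inhibitors gave higher levels of NEU1, GRN, TUBB2A, TM7SF2 and 10 of 28 tested cholesterol genes. They gave lower levels of HHEX, MEPCE, MID1IP1, BRD2, 8 of 19 tested histone genes and the transcripts MIR17HG, MIR142HG, SNHG3 and SNHG19. Of 8202 genes tested, 1152 (14%) differed between the 4 HDAC inhibitor and the 6 JQ1 wells at an adjusted p under 0.05 (edgeR quasi-likelihood test with Benjamini-Hochberg adjustment, plate as covariate), 622 (7.58%) higher and 530 (6.46%) lower. Of the called genes, 543 differed by more than 2-fold. The median 95% half-width of a log2 difference was 0.53. Against JQ1 well 22 alone, 1228 genes (15.0%) were called, 696 (8.49%) higher and 532 (6.49%) lower, and 452 without well 22 of plate 2. Both comparisons called 828 genes, 516 higher and 312 lower, and 0 in opposite directions; they share the HDAC inhibitor wells and well 22. In 461 of the 8202 tested genes every HDAC inhibitor well lay above every JQ1 well, and in 424 every one lay below. Of these non-overlapping genes, 721 were also called with 6 JQ1 wells. With ERCC counts as the library size the median of all genes moved to 0.27 and the 6-well split became 862 higher and 191 lower, so the direction of small differences depends on the scaling. Under that scaling 15 named genes lost their call with no change of direction, among them MYC, SERTAD1, HEXIM1, NFE2, HSPA8, CDK1 and CIRBP.

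Among genes higher under HDAC inhibitors whose mean log2 CPM reached 5 and whose groups did not overlap, NEU1, which encodes the lysosomal sialidase, changed most. Its level was 213 and 209 CPM in the Panobinostat wells and 194 and 205 CPM in the Quisinostat wells. In JQ1 wells it was 68.9 and 47.1 CPM in well 22 and 24.8 to 63.8 CPM in the first column. The groups were far apart, with a log2 difference of 2.01 (SE 0.17, adjusted p 3.26e-14, edgeR). DDAH2, whose product is a member of the dimethylarginine dimethylaminohydrolase family, had 78.8, 94.3, 82.9 and 83.1 CPM under HDAC inhibitors and 10.6 to 33.7 CPM under JQ1 (median 19.8), a log2 difference of 1.89. EHD1, an ATPase of endocytic recycling, had 67.7 to 133 CPM under HDAC inhibitors and 13.8 to 38.9 CPM under JQ1, a log2 difference of 1.76. Groups that did not overlap were a condition for ranking these genes, so that is no added result. The Panobinostat well of plate 2 was well above the other EHD1 values.

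MSRB1, a selenoprotein that reduces oxidised methionine, had 132 and 163 CPM under Panobinostat and 162 and 132 CPM under Quisinostat, against 38.1 to 73.0 CPM under JQ1, and its log2 difference was 1.70 (SE 0.17). GRN, the progranulin precursor gene, had 96.0, 111, 82.9 and 97.9 CPM under HDAC inhibitors and 22.8 to 38.3 CPM under JQ1. TUBB2A, a beta-tubulin, had 126 to 167 CPM under HDAC inhibitors and 31.9 to 68.4 CPM under JQ1. The lack of overlap in these genes was likewise a condition of the ranking. SWI5, a partner in homologous recombination, had 332 to 439 CPM under HDAC inhibitors against 95.6 to 153 CPM under JQ1 (log2 difference 1.47, SE 0.13). TM7SF2, a sterol reductase, had 67.0 to 121 CPM under HDAC inhibitors against 22.8 to 45.9 CPM under JQ1 (log2 difference 1.49, SE 0.22). The remaining 4 of the 12 genes at the top, ACTR6, GNB1L, STX10 and RGS14, had log2 differences of 1.46 to 1.60, and the next gene below them, HMGCS1, had 1.43.

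**Figure D1:**
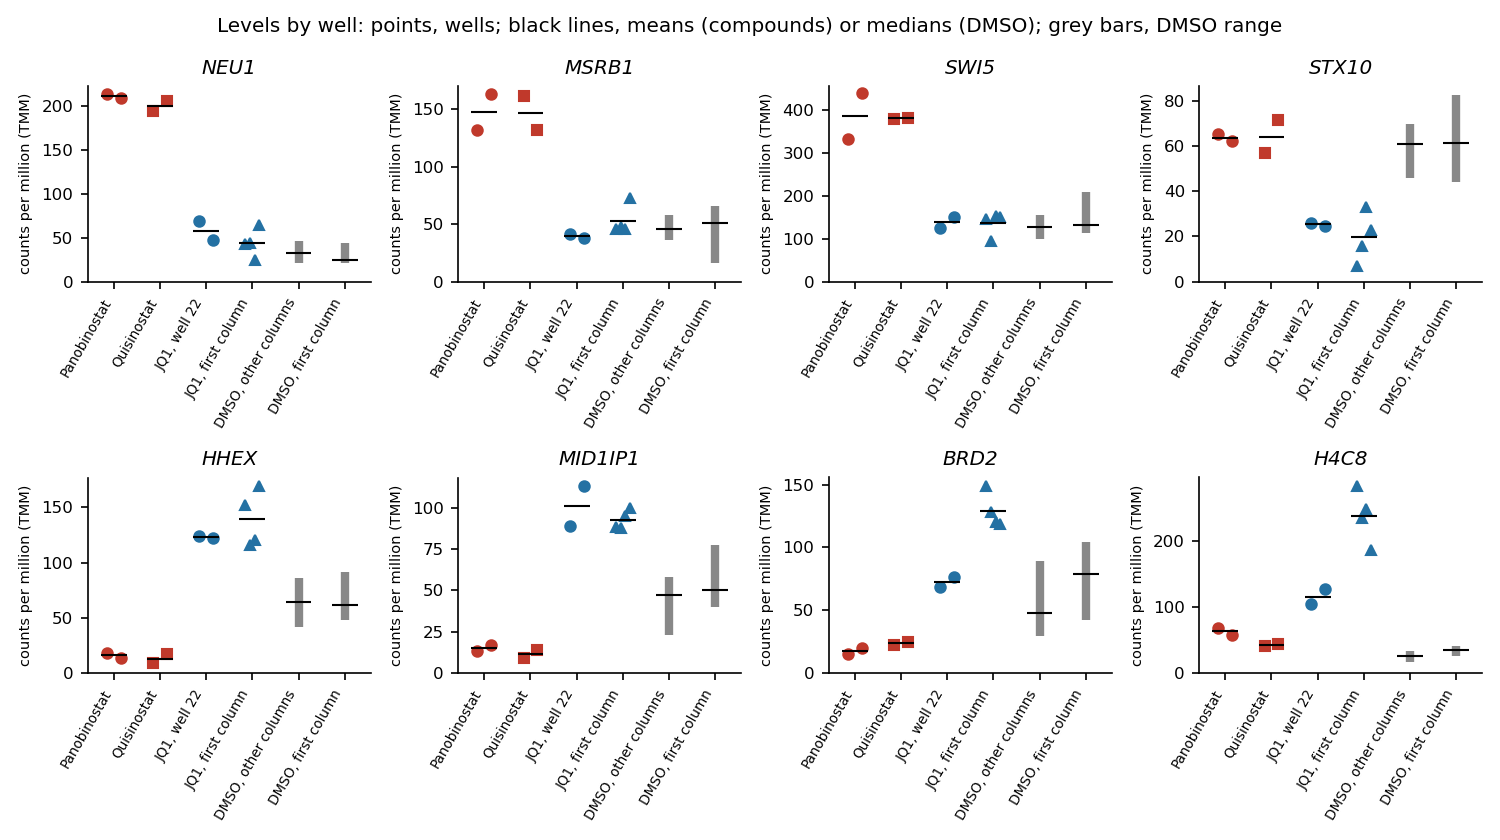
Level of 8 genes in each well, in CPM with TMM scaling on linear axes from 0. Points are wells (red, HDAC inhibitors; blue, JQ1), black lines are means of the compounds or medians of DMSO, and grey bars span the DMSO wells. NEU1, MSRB1 and SWI5 stand above JQ1 and DMSO under HDAC inhibitors, STX10 is low under JQ1, HHEX and MID1IP1 fall on opposite sides of DMSO, and H4C8 exceeds DMSO under both classes.

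Setting each class beside the DMSO wells outside the first column showed that these genes reached their difference in unlike ways. The 2 sets of values below share those DMSO wells. NEU1 differed from DMSO by 2.68 under HDAC inhibitors and by 0.83 under JQ1 well 22 on the log2 scale. MSRB1 differed by 1.62 under HDAC inhibitors and by -0.28 under JQ1, GRN by 1.40 and -0.20, and SWI5 by 1.53 and 0.08; the 3 JQ1 values were not called. ACTR6, an actin-related protein of the SRCAP complex, differed by 0.42 under HDAC inhibitors and by -1.22 under JQ1, both called. STX10, a Golgi syntaxin, differed by 0.12 (not called) under HDAC inhibitors and by -1.21 under JQ1. RGS14, a regulator of G protein signalling, differed by 0.19 (not called) under HDAC inhibitors and by -1.33 under JQ1. The direct difference of STX10 and RGS14 thus lay mostly on the JQ1 side. Of all 8202 genes, 2721 (33.2%) differed from DMSO under HDAC inhibitors, 1381 (16.8%) higher and 1340 (16.3%) lower. Under JQ1 well 22, 1119 (13.6%) did, 613 (7.47%) higher and 506 (6.17%) lower, from 2 wells in place of 4.

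By the same limits on level and overlap, HHEX, a haematopoietic homeobox repressor, came first among genes lower under HDAC inhibitors. Its level was 18.5 and 13.5 CPM under Panobinostat and 9.08 and 17.1 CPM under Quisinostat, against 124 and 122 CPM in JQ1 well 22 and 116 to 169 CPM in first-column JQ1 wells. The groups lay on opposite sides of the DMSO wells outside the first column, which ran from 41.3 to 86.4 CPM. The log2 difference was -3.15 (SE 0.25, adjusted p 5.61e-16, edgeR), and HHEX differed from DMSO by -2.10 under HDAC inhibitors and by 0.95 under JQ1 well 22. MID1IP1, a regulator of lipogenesis that binds the microtubule protein MID1, had 9.08 to 16.8 CPM under HDAC inhibitors and 87.7 to 113 CPM under JQ1. It too was on both sides of DMSO, at -1.71 under HDAC inhibitors and 1.24 under JQ1. MEPCE, the enzyme that caps 7SK RNA, had 3.69, 6.73, 5.68 and 6.83 CPM under HDAC inhibitors and 27.9 to 59.3 CPM under JQ1, a log2 difference of -2.89 (SE 0.34). HOXB2, a homeobox gene, had 3.69 to 13.7 CPM under HDAC inhibitors and 49.5 to 63.8 CPM under JQ1.

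BRD2, itself a BET protein and a target of JQ1, had 14.8 and 20.2 CPM under Panobinostat and 22.7 and 25.0 CPM under Quisinostat. It had 68.9 and 76.2 CPM in JQ1 well 22 and 119 to 149 CPM in the first-column JQ1 wells. All HDAC inhibitor wells were below the lowest DMSO well outside the first column (29.5 CPM), while both wells of JQ1 position 22 were within the DMSO range. The log2 difference was -2.26 with 6 JQ1 wells and -1.77 (SE 0.26) with well 22. RBM14, a coactivator that binds RNA, had 38.2 to 53.5 CPM under HDAC inhibitors and 116 to 244 CPM under JQ1; it was close to DMSO under HDAC inhibitors (-0.30, not called) and above it under JQ1 (1.28). SNX5, a retromer-associated sorting nexin, had a log2 difference of -1.72.

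Of these 12 genes, 4 were host transcripts of small RNAs, which differed between JQ1 positions too. That grouping was made after the values were seen, and the share called among all such transcripts was not taken. MIR17HG, host of the miR-17-92 cluster, had 5.05 to 11.1 CPM under HDAC inhibitors, 27.6 and 30.3 CPM in JQ1 well 22 and 57.8 to 86.6 CPM in first-column JQ1 wells. SNHG3, a host of small nucleolar RNAs, had 402 to 454 CPM under HDAC inhibitors, 1097 and 992 CPM in JQ1 well 22 and 1919 to 2237 CPM in first-column JQ1 wells. The DMSO wells showed the same step: median SNHG3 was 1564 CPM in the first column and 793 CPM elsewhere. Without the first-column wells, the log2 differences were -1.83 for MIR17HG, -1.81 for MIR142HG, -1.25 for SNHG3 and -0.81 for SNHG19. A call with well 22 was a condition of the ranking, so that all 4 were called there is no added result.

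The promoters of the 2 highest-ranked genes of each direction with a single start in the RefSeq table (GRCh38.p14, 250 bases before to 50 after the start, shown in the direction of transcription) are printed to show the start regions of genes near the top of each ranking: NEU1 at chr6:31862772-31863071 (minus strand), MSRB1 at chr16:1943150-1943449 (minus), HHEX at chr10:92689705-92690004 (plus) and MID1IP1 at chrX:38801209-38801508 (plus). Capitals mark matches on either strand to 5 motifs: the GC box GGGCGG, the CCAAT box CCAAT, the E-box CACGTG, the TATA motif TATAAA and the AP-1 motif TGANTCA; adjoining matches run together.
NEU1: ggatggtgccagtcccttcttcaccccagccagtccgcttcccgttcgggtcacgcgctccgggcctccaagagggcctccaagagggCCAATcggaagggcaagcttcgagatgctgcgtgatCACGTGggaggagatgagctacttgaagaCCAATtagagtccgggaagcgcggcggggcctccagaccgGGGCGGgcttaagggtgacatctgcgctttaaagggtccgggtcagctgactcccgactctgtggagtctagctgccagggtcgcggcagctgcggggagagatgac
MSRB1: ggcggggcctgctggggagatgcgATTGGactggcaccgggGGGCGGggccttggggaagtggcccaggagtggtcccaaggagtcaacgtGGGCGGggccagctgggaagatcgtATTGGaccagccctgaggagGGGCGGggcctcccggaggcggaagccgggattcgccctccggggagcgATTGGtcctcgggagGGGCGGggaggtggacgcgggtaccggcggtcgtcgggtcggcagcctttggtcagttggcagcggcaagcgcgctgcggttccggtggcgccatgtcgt
HHEX: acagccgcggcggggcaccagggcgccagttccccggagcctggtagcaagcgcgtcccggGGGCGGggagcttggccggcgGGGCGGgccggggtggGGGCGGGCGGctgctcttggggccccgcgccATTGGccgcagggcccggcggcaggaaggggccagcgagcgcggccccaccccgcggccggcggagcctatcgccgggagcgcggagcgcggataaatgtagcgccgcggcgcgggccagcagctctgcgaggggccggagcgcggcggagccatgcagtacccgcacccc
MID1IP1: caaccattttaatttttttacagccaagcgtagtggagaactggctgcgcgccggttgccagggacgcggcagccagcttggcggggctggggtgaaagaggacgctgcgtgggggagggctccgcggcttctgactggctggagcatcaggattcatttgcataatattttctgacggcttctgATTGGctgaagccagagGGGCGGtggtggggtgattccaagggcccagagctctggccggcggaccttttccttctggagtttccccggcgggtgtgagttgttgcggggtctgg
NEU1 held 1 GC box, 2 CCAAT boxes and 1 E-box, MSRB1 4 GC boxes and 3 CCAAT boxes, HHEX 4 GC boxes and 1 CCAAT box, and MID1IP1 1 of each. The GC box was in 76.9% of promoter windows of genes higher in both comparisons, 72.5% of those lower in both, 70.0% of those of all tested genes and 45.0% of all 35116 windows in the table. The CCAAT box was in 43.2%, 41.3%, 37.0% and 34.6% of the same sets. The E-box was in 10.6% and 8.56% of the higher and lower sets and 10.4% of the tested set, and TATAAA in 6.07%, 9.79% and 5.67%. The AP-1 motif was in 4.51% of windows of the higher set and 1.22% of the lower set, beside 4.24% of the tested set; a gene with several starts has several windows, and a match is only a match of letters.

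Of 19 tested histone genes in the polyadenylated RNA, 8 were called lower under HDAC inhibitors than under JQ1 and 1 (H4C3) higher, beside 6.46% lower and 7.58% higher over all genes. The other 10 were not called, and the median log2 difference was -0.44 beside 0.01 over all genes. H2BC11 had 279, 226, 219 and 232 CPM under HDAC inhibitors and 634 to 716 CPM under JQ1, with no overlap. Its DMSO range outside the first column was 172 to 296 CPM, which held every HDAC inhibitor well. H1-2, a linker histone, had 887 to 1024 CPM under HDAC inhibitors, 1801 to 2113 CPM under JQ1 and 640 to 824 CPM in DMSO. H4C8 had 68.9, 57.2, 40.9 and 44.4 CPM under HDAC inhibitors, 104 and 127 CPM in JQ1 well 22 and 187 to 283 CPM in first-column JQ1 wells. Against DMSO, 11 histone genes were higher and 1 lower under HDAC inhibitors, and 18 were higher and 0 lower under JQ1 well 22. Over all genes, 16.8% were higher under HDAC inhibitors and 7.47% under JQ1 well 22. H1-10 differed little between the classes (0.12, not called), at 1.69 above DMSO under HDAC inhibitors and 1.63 under JQ1. Histone genes are near-identical copies, so counts may be shared among them.

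Genes known to respond to BET inhibitors lay mostly below JQ1. Of 11 tested members outside MYC, 7 were called lower and 0 higher, beside 6.46% lower and 7.58% higher over all genes. Their median was -0.85 beside 0.01 over all genes, and 4 of the 7 are histone genes already counted above. HEXIM1, the inhibitor of P-TEFb and a common readout of BET inhibition, had 32.0 to 52.2 CPM under HDAC inhibitors, 44.4 and 50.4 CPM in JQ1 well 22 and 78.4 to 145 CPM in first-column JQ1 wells. It was called with 6 JQ1 wells (-0.93, adjusted p 0.00858, edgeR) and not with well 22 (-0.23, adjusted p 0.566), and both classes were above DMSO, by 0.90 and 1.14. SERTAD1, a cyclin-dependent kinase 4 binding protein, had 41.8 to 72.7 CPM under HDAC inhibitors and 71.7 to 142 CPM under JQ1 and was called in both comparisons (-0.85 and -0.69). Of 22 tested elongation genes, 1 was called higher and 3 lower, beside 7.58% higher and 6.46% lower over all genes. With well 22, 3 were higher and 2 lower, beside 8.49% and 6.49%. POLR2A, the large subunit of RNA polymerase II, was lower (-1.56), at -0.37 against DMSO under HDAC inhibitors (not called) and 1.14 under JQ1. SUPT4H1, a subunit of the elongation factor DSIF, was the 1 higher gene with 6 JQ1 wells (0.45).

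MYC was lower under HDAC inhibitors than under JQ1, and both classes lowered it relative to DMSO. MYC had 49.2 and 45.5 CPM under Panobinostat and 35.2 and 38.7 CPM under Quisinostat, against 75.0 and 75.1 CPM in JQ1 well 22 and 67.3 to 91.2 CPM in first-column JQ1 wells. No HDAC inhibitor well reached a JQ1 well, and the median of the DMSO wells outside the first column was 113 CPM. The log2 difference was -0.85 (SE 0.18), and MYC differed from DMSO by -1.41 under HDAC inhibitors and by -0.59 under JQ1. MYB, the haematopoietic transcription factor, had 2.28 to 6.73 CPM under HDAC inhibitors and 9.19 to 27.9 CPM under JQ1 (log2 difference -2.15, SE 0.44). PIM1 and SOCS2, targets of STAT5, had log2 differences of -1.14 and -1.29. Of the 18 tested genes of this list 6 were called lower and 0 higher, beside 6.46% lower and 7.58% higher over all genes.

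Erythroid regulators were low under both classes. Against DMSO, 11 of 14 tested erythroid transcription factors were lower and 0 higher under HDAC inhibitors, and 9 were lower and 1 higher under JQ1 well 22. Over all genes, 16.3% were lower under HDAC inhibitors and 6.17% under JQ1 well 22. Directly compared, only HHEX, MYB and NFE2 of the 14 were called, all lower under HDAC inhibitors, beside 6.46% lower over all genes. GATA1, the master erythroid factor, had 94.5 to 126 CPM under HDAC inhibitors and 113 to 227 CPM under JQ1, beside a DMSO median of 224 CPM outside the first column. The groups overlapped, and the difference was not called (-0.48, adjusted p 0.0963, edgeR; with well 22, -0.10). Of 8 tested globin genes 0 were called by edgeR at the adjusted threshold, with HBG1 at 8359 to 9107 CPM under HDAC inhibitors and 7181 to 9180 CPM under JQ1. TFRC, the transferrin receptor, was called with 6 JQ1 wells (-0.93) and not with well 22 (-0.23).

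**Figure D2:**
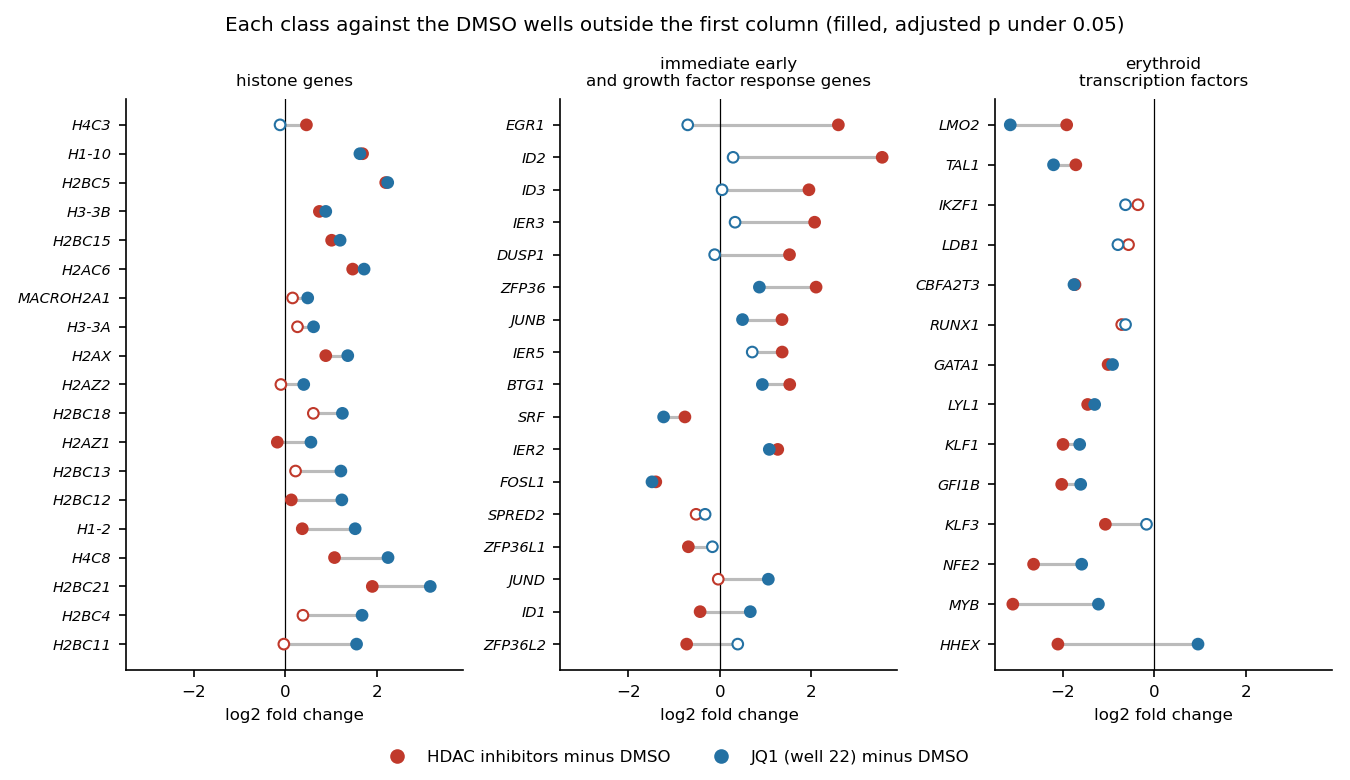
Log2 fold change of list members against the DMSO wells outside the first column, for HDAC inhibitors (red) and JQ1 well 22 (blue), joined per gene; filled points have an adjusted p under 0.05. Most histone genes lie further right under JQ1, EGR1, ID2, ID3 and IER3 further right under HDAC inhibitors, and most erythroid factors lie left under both, with HHEX on opposite sides.

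Immediate early and growth factor response genes split. Of 17 tested, 7 were higher (EGR1, ID2, ID3, IER3, DUSP1, ZFP36, JUNB) and 3 lower (JUND, ID1, ZFP36L2), and all 10 were also called with well 22. Over all genes, 7.58% were higher and 6.46% lower with 6 JQ1 wells. ID2, an inhibitor of basic helix-loop-helix factors, had 55.4, 42.1, 53.4 and 71.7 CPM under HDAC inhibitors and 3.54 to 15.9 CPM under JQ1 (log2 difference 3.04, SE 0.36). It passed the filter on low counts only with the HDAC inhibitor wells included, which favoured a higher call. ID3, of the same family, had 35.4 to 61.5 CPM under HDAC inhibitors and 12.3 to 23.9 CPM under JQ1 (1.62, SE 0.28). ID1 went the other way, at 88.6, 92.6, 115 and 93.3 CPM under HDAC inhibitors and 191 to 375 CPM under JQ1 (-1.56, SE 0.19). No well of either group crossed into the other for these 3 relatives. JUND, an AP-1 subunit, had 29.5 to 40.4 CPM under HDAC inhibitors and 57.8 to 113 CPM under JQ1; against DMSO it was at -0.03 under HDAC inhibitors and 1.06 under JQ1.

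Of 17 tested genes listed as HDAC inhibitor responders, 5 were higher (CDKN1A, NEU1, GLRX, GADD45B, CRIP2) and 5 lower (GADD45A, H2BC21, HEXIM1, DHRS2, SQSTM1) with 6 JQ1 wells. Over all genes, 7.58% were higher and 6.46% lower (8.49% and 6.49% with well 22). With well 22 alone, 8 were higher and 3 lower: HEXIM1 and DHRS2 (adjusted p 0.0651, edgeR) lost their call. Against DMSO, 11 were higher and 2 lower under HDAC inhibitors, beside 16.8% higher and 16.3% lower over all genes. Under JQ1 well 22, 9 were higher and 1 lower, beside 7.47% higher and 6.17% lower over all genes. H2BC21 (1.90), HEXIM1 (0.90) and DHRS2 (1.18) were among those higher under HDAC inhibitors. They were also higher under JQ1 well 22 (3.16, 1.14 and 1.75). CDKN1A, the p21 inhibitor of cyclin-dependent kinases, had 23.8 to 30.7 CPM under HDAC inhibitors and 4.13 to 19.9 CPM under JQ1 (1.66, SE 0.34). The related inhibitors CDKN1C and CDKN2D were also higher (2.07 and 2.37). E2F3 was the 1 lower gene of that 16-gene list (-1.53), a count near 6.46%, and was not called with well 22. CRIP2, a LIM-domain protein, had 16.0 to 40.4 CPM under HDAC inhibitors and 0 to 3.99 CPM under JQ1. CDKN1A, CDKN1C and CRIP2 passed the filter on low counts only with the HDAC inhibitor wells included. That filter favoured their higher calls, which are no separate support. SQSTM1, the autophagy receptor p62, had 77.5, 92.6, 88.6 and 76.3 CPM under HDAC inhibitors and 169 to 245 CPM under JQ1 (-1.37, SE 0.13).

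Cholesterol genes were more often higher than lower. Of 28 tested cholesterol genes, 10 were higher and 1 lower (median 0.375 beside 0.01 over all genes), and 11 were higher and 0 lower with well 22. Over all genes, 7.58% were higher and 6.46% lower (8.49% and 6.49% with well 22). HMGCS1, an early enzyme of the mevalonate pathway, had 65.2, 80.8, 55.6 and 74.0 CPM under HDAC inhibitors and 7.97 to 36.5 CPM under JQ1. SQLE, the squalene epoxidase, had 82.5 to 126 CPM under HDAC inhibitors, and of the JQ1 wells only well 49 of plate 2 (91.7 CPM) reached that range. SREBF1, which encodes a transcription factor of lipid synthesis, was higher by 1.04 (SE 0.19). Of 25 tested lysosomal and autophagy genes, 4 were higher (NEU1, GRN, CTSL, PSAP) and 1 lower (SQSTM1), beside 7.58% and 6.46% over all genes; with well 22, 3 were higher, and CTSL was not called (adjusted p 0.0516, edgeR). Of 18 tested BCL2 family and death genes, 6 were higher and 0 lower, beside the same 7.58% and 6.46% over all genes. With well 22, 5 were higher and 0 lower. BAD, a BH3-only protein, had 114 to 148 CPM under HDAC inhibitors and 31.9 to 65.0 CPM under JQ1 (1.12, SE 0.17). BAK1, a pore-forming member, had 16.0 to 31.8 CPM under HDAC inhibitors and 6.13 to 11.2 CPM under JQ1; against DMSO it was at 0.18 under HDAC inhibitors (not called) and -1.26 under JQ1.

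**Figure D3:**
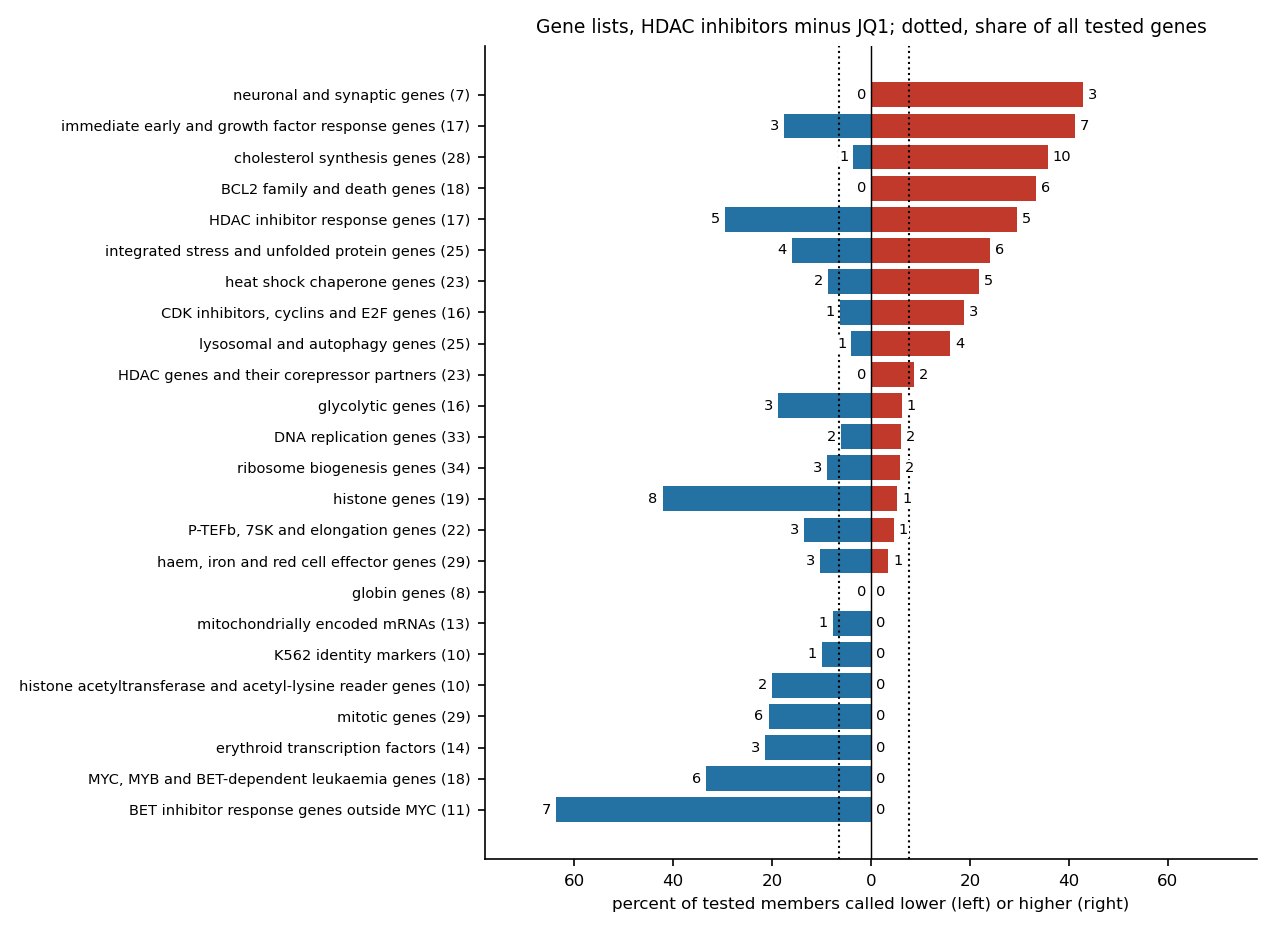
Percent of each list's tested members called higher (red, right) or lower (blue, left) under HDAC inhibitors than under JQ1, with the number called beside each bar and the number tested in parentheses. Dotted lines mark 7.58% higher and 6.46% lower, the shares over all tested genes; lists with 5 or more tested members are drawn.

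Single chaperone genes were called in both directions. HSPA1A, the inducible HSP70, had 350, 364, 310 and 339 CPM under HDAC inhibitors and 103 to 173 CPM under JQ1 (1.34, SE 0.13); its near-identical copy HSPA1B, with which reads can be shared, was not called with 6 JQ1 wells (0.50) and was called with well 22 (0.66). DNAJB1, its cochaperone, had 614 to 891 CPM under HDAC inhibitors and 309 to 439 CPM under JQ1, and both classes were above DMSO (2.41 and 1.21). HSPA8, the constitutive HSP70, was lower, at 690 to 845 CPM under HDAC inhibitors and 966 to 1295 CPM under JQ1. HSPA5, the endoplasmic reticulum HSP70, was higher (0.78), and PPP1R15A, which recruits a phosphatase to eIF2, and ATF5, a stress transcription factor, were lower (-0.95 and -1.24); ATF5 was not called with well 22 (-0.79, adjusted p 0.0565, edgeR). In all, 5 of 23 chaperone genes were higher and 2 lower, and 6 higher and 3 lower with well 22. Over all genes, 7.58% were higher and 6.46% lower (8.49% and 6.49% with well 22). The count of 2 lower chaperone genes was near that share. Of 25 integrated stress and unfolded protein genes, 6 were higher and 4 lower, beside the same shares over all genes. With well 22, 7 were higher and 1 lower, and ATF4 (adjusted p 0.261, edgeR) and SLC3A2 (0.101) also lost their lower calls.

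Of 33 tested DNA replication genes 2 were higher and 2 lower, near the shares over all genes. RRM2, a subunit of ribonucleotide reductase, had 140, 168, 146 and 149 CPM under HDAC inhibitors and 268 to 420 CPM under JQ1 (-1.18, SE 0.11), and it was above DMSO under both (0.39 and 1.54). TK1, thymidine kinase, was higher (0.71, SE 0.11). Of 29 tested mitotic genes 0 were higher and 6 lower by edgeR, beside 7.58% higher and 6.46% lower over all genes, and 1 was higher and 4 lower with well 22. CDK1, the mitotic kinase, had 94.3 to 120 CPM under HDAC inhibitors and 145 to 197 CPM under JQ1 (-0.66, SE 0.15). Among 23 tested HDAC and corepressor genes, HDAC5 (0.85) and HDAC3 (0.63) were higher and 0 lower, a count near the 7.58% higher over all genes; HDAC1 was not called (0.40, adjusted p 0.105, edgeR) and neither was HDAC2 (0.25). GAPDH, looked up as a housekeeping gene, was not called with 6 JQ1 wells (0.00) and lower with well 22 (-0.21, adjusted p 0.0163, edgeR).

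Panobinostat and Quisinostat, compared as 1 pair, were hard to separate with 2 wells each. Against the 6 JQ1 wells, Panobinostat alone gave 662 called genes (8.07%) and Quisinostat alone gave 752 (9.17%); these counts share the JQ1 wells. They rest on both wells of a compound: without its plate 1 or plate 2 well, Panobinostat gave 322 or 270 and Quisinostat 333 or 295. NEU1 was at 2.05 and 1.97 above JQ1, HHEX at -2.98 and -3.31, and ID2 at 2.86 and 3.18. Set against each other, 1 gene (0.0122%) was called by edgeR, and 178 had an unadjusted p under 0.05. That gene, CIRBP, a cold-inducible RNA-binding protein named after its value was seen, had 374 and 379 CPM under Panobinostat and 216 and 196 CPM under Quisinostat (0.87, SE 0.16, adjusted p 0.00903, edgeR), beside 391 to 547 CPM under JQ1 and a median of 209 CPM in the DMSO wells outside the first column. The call was lost with library size alone, without a filter on low counts, with the wells of the comparison only, and on leaving out any 1 of the 4 HDAC inhibitor wells. The median 95% half-width between the compounds was 0.72 on the log2 scale, and a missed threshold does not show that the compounds act alike.

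Levels differed between the JQ1 positions. First-column JQ1 wells differed from JQ1 well 22 in 985 genes (12%); the annotation does not say whether the 3 JQ1 positions hold the same dose, so dose and position cannot be told apart there. Among DMSO wells, which hold no compound, those of the first column differed from the others in 2475 genes (30.2%). Within the first column, JQ1 differed from DMSO in 655 genes (7.99%). The effect of JQ1 was not called different between the first column and well 22 for any gene: 0 (0%) by edgeR and 0 by limma-voom, with 438 at an unadjusted p under 0.05 and a median 95% half-width of 0.83.

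Another HDAC inhibitor and another BET inhibitor, in wells that the comparison above does not use, gave differences of the same direction in most of its genes. Vorinostat, a hydroxamate with 2 wells of 371212 and 349720 counts, was compared with I-BET762, with 4 wells of 595438 to 1081133 counts, none in the first column. Of 8881 genes tested, 201 (2.26%) were called, and 453 when only these 6 wells were fitted. Of the genes higher in both comparisons above, 485 had a value here, 440 (90.7%) of them positive, with a median of 0.57 and 78 called higher. Of those lower in both, 310 had a value, 253 (81.6%) of them negative, with a median of -0.39 and 43 called lower. Among 6632 genes called in neither, 47.1% were positive and the median was -0.03.

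Of the 12 top genes in each direction, 12 had the same sign here among those higher, 6 of them called, and 11 among those lower, 3 of them called. SWI5 had 269 and 326 CPM under Vorinostat and 109 to 138 CPM under I-BET762 (1.25, SE 0.17, adjusted p 6.07e-06, edgeR). RBM14 had 30.8 and 27.6 CPM under Vorinostat and 81.5 to 105 CPM under I-BET762 (-1.66, SE 0.42). H2BC11 had 218 and 182 CPM under Vorinostat and 474 to 619 CPM under I-BET762 (-1.47, SE 0.15). In these 3 genes the compounds did not overlap. NEU1 (0.50) and HHEX (-0.87) kept their sign without being called, and SNHG19 did not (0.09). MYC went the other way, with 143 and 171 CPM under Vorinostat and 81.5 to 101 CPM under I-BET762 (0.73, SE 0.20, adjusted p 0.0409, edgeR), as did the uncalled ID1 (0.58).

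**Figure D4:**
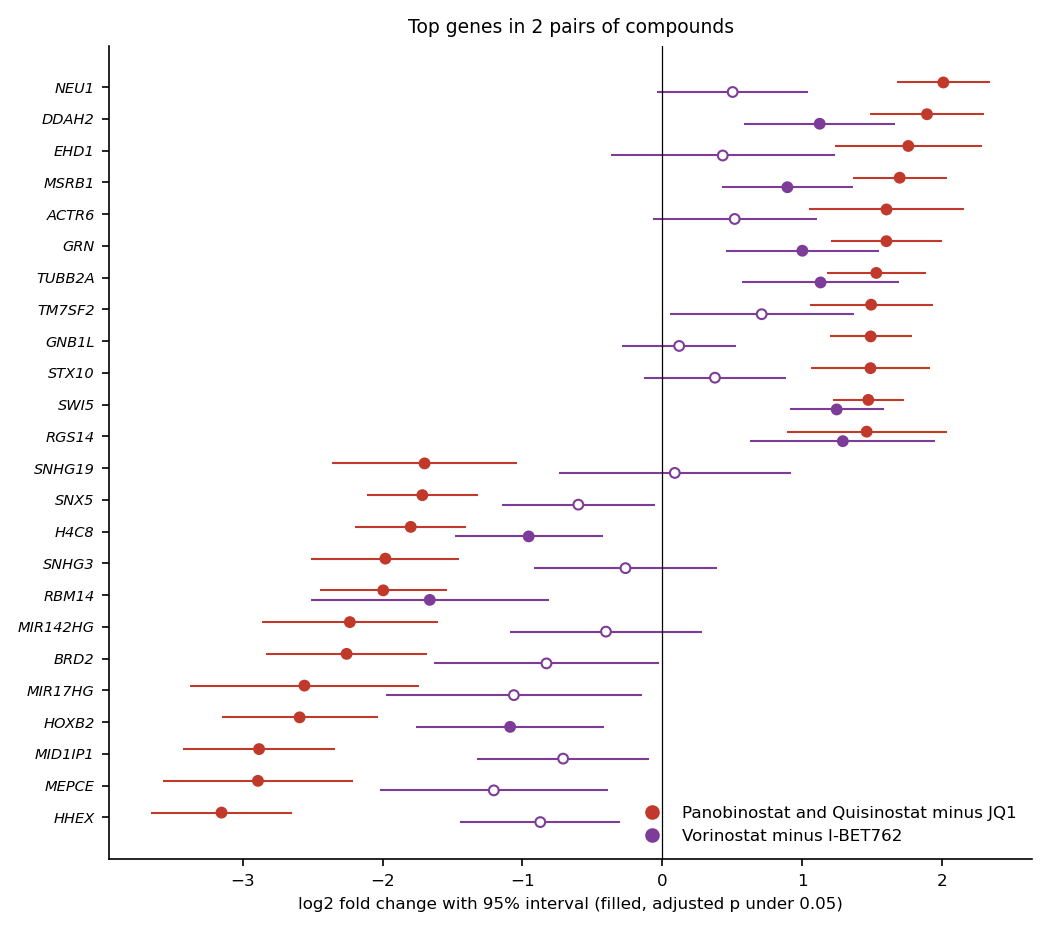
Log2 fold change with its 95% interval for the 12 top genes of each direction, for Panobinostat and Quisinostat minus JQ1 (red) and Vorinostat minus I-BET762 (purple); filled points have an adjusted p under 0.05. SWI5 and RBM14 lie close in both pairs, NEU1 and HHEX are smaller in the second, and SNHG19 is near 0 there.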

How the data were processed

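Counts per gene and well were deposited by the authors for 2 plates of 96 wells; they are named expected counts (estimated counts) here only because some deposited summary rows hold fractions, while all 57905 gene rows and 92 ERCC rows hold whole counts. The 6 summary rows were left out. The build was hg19 (GRCh37), and the tools listed are cutadapt 2.1, FastQC 0.11.6, R 4.0.2 and bcl2fastq 2.17.1.14, per the submitters' processing notes. Which aligner and counter were run, and whether strand was used, is not given in the sources used here. Deposited reads per unique molecular identifier were 1.67 to 2.46 in the 10 wells. This ratio cannot show whether the gene rows count reads or molecules, and the sources used here do not say. Counting error at these depths limits genes of low level most.

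Genes were filtered with filterByExpr (minimum count 10) and scaled by TMM over 34 wells (4 HDAC inhibitor, 6 JQ1, 24 DMSO). The test was the quasi-likelihood test of edgeR 4.0.16 (R 4.3.3), with plate as covariate, Benjamini-Hochberg adjustment over the 8202 genes and a threshold of 0.05. The repeat with well 22 splits JQ1 and DMSO by first column. Levels are TMM-scaled CPM; marker sums are plain CPM. The 6-well and the well 22 comparisons were tested on simulated data. limma 3.58.1 (voom), DESeq2 1.42.0 and other settings were tried as alternatives, and the 3 contrasts on position were added after seeing the data. Vorinostat and I-BET762 (spelled IBET_762 in the annotation) were fitted with the DMSO wells; I-BET762 had 4 wells where 2 had been planned for.

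The comparison and the 27 gene lists were chosen with earlier results of these data known. Of 645 distinct list genes, 12 had no matching row and are not analysed here, and 193 fell below the filter. Genes named are, per direction, the 12 largest log2 differences among genes called in both comparisons whose mean log2 CPM reached 5 and whose groups did not overlap. To these come up to 4 called members of each list by smallest p and a fixed set looked up (MYC, HEXIM1, SERTAD1, CDKN1A, BRD2, HDAC1, HDAC2, HDAC3, GATA1, HBG1, GAPDH); a few further genes are not reported here. Other names were chosen after their values were seen. Promoters are from genes with 1 start in the table, since the rule gave no choice among starts.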

Additional observations from a re-analysis of the deposited data

Results flagged for a closer look

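A single well lay apart from the rest of its group in 8 of 200 pairs of a named gene and a group. It was judged by its gap to the nearest well relative to the range of the group. For independent wells of 1 normal group, chance sets apart about 1 in 20 such pairs. The JQ1 group mixes positions, and the genes share wells and were partly chosen for groups that did not overlap. The 8 of 200 therefore cannot be set against that rate. Among the HDAC inhibitor wells, ACTR6 was at 33.7 CPM in the Panobinostat well of plate 2 (others 47.7 to 49.2) and TUBA4A, an alpha-tubulin, at 106 CPM in the Quisinostat well of plate 2 (others 89.8 to 92.0). Among the JQ1 wells, 2 such values were in first-column well 61 of plate 2: MSRB1 at 73.0 CPM (others 38.1 to 47.8) and BAD at 31.9 CPM (others 53.7 to 65.0). The other 4 were in first-column well 49 of plate 2, which had the lowest human to ERCC ratio of the 10 wells (2.68): SQLE at 91.7 CPM (others 30.3 to 41.0), HMGCS1 at 7.97 CPM (others 22.4 to 36.5), MT-ND4, a mitochondrial mRNA, at 18355 CPM (others 13766 to 14407) and HDAC1 at 39.9 CPM (others 63.7 to 77.5). Without that well MT-ND4 was no longer called (-0.19), and SQLE, HMGCS1 and MSRB1 kept their calls.

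CIRBP differed between the 2 HDAC inhibitors, with a log2 difference of 0.87 for Panobinostat minus Quisinostat, in a test of that difference.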

How the results depend on the processing

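Of 100 named genes, 94 were called, and 71 of these kept direction and call under all 23 alternatives. That count is partly set by how the genes were chosen. The top genes of each direction had to be called with JQ1 well 22 only, which is among the alternatives, and to have groups that did not overlap. List members were taken from called genes by smallest p. The 71 is therefore no measure of how stable calls are over all genes. Direction reversed with ERCC scaling for MT-ND4 (0.06), ENO1 (0.04) and ALDOA (0.07), and for GAPDH with JQ1 well 22 only (-0.21) and with a first-column term (-0.26). The 6-well count of 1152 ran from 802 (duplicates summed per position) to 1561 (all wells of both plates), and from 913 to 1097 on leaving out 1 well; without the plate term, the replicate block, it was 1103, and 969 for well 22. Against well 22, ERCC scaling called 613 genes (475 higher, 138 lower) and leaving out 1 well gave 452 to 1237, with 452 without JQ1 well 22 of plate 2. For Panobinostat the count was 1001 with a first-column term, 429 with the wells of the comparison only and 270 to 650 without 1 well; it was 322 and 270 without its plate 1 and plate 2 wells. For Quisinostat it was 463 with the wells of the comparison only and 295 to 755 without 1 well; it was 333 and 295 without its plate 1 and plate 2 wells. Between these compounds it was 3 with a first-column term, 0 with library size alone, with no filter or with the wells of the comparison only, and 0 to 1 without 1 well. Vorinostat against I-BET762 gave 453 with those wells only. The split moved to 968 higher and 419 lower with no filter (6 wells), to 889 and 290 with library size alone (well 22), and for JQ1 against DMSO to 252 and 921 with library size alone (median of all genes -0.16) and 698 and 308 with voom. The cause of these shifts was not tested.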

Other observations

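Large differences also lay in genes of lower level, which the rule for named genes leaves out; those given here were chosen after their values were seen. ENTPD2, an ectonucleotidase, had 70 counts over the 4 HDAC inhibitor wells and 0 over the 6 JQ1 wells, at least 19.2-fold higher against a floor of 3 counts over the JQ1 group. PTGDS, a prostaglandin D synthase, had 66.5, 60.6, 55.6 and 61.5 CPM under HDAC inhibitors and 0 to 4.59 CPM under JQ1. ENTPD2 and PTGDS passed the filter on low counts only through the HDAC inhibitor wells. That filter favoured large upward differences in these 2 genes, so their size is no separate support. SERPINB9, an inhibitor of granzyme B, had 80.0 to 95.6 CPM under HDAC inhibitors and 3.99 to 13.7 CPM under JQ1 (log2 difference 3.25, SE 0.305). KHK, ketohexokinase, had 46.8 to 70.4 CPM under HDAC inhibitors and 3.99 to 7.08 CPM under JQ1 (3.33, SE 0.39). HES1, a repressor downstream of Notch, had 48.0 to 64.0 CPM under HDAC inhibitors and 3.36 to 7.08 CPM under JQ1, with a DMSO median of 16.2 CPM outside the first column between them. Against DMSO, HES1 differed by 1.77 under HDAC inhibitors and by -2.03 under JQ1 well 22.

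In the other direction, ADARB1, an RNA-editing deaminase, had 12.5 to 28.6 CPM under HDAC inhibitors and 71.7 to 106 CPM under JQ1 (-2.24, SE 0.22), beside 4.27 to 13.5 CPM in the DMSO wells outside the first column. The histone gene H3C14 had 14.8 to 20.2 CPM under HDAC inhibitors and 58.2 to 153 CPM under JQ1 (-2.63, SE 0.26). Of these genes, PTGDS, HES1, KHK and SERPINB9 were also above I-BET762 in both Vorinostat wells: HES1 had 53.2 and 44.2 CPM under Vorinostat and 4.46 to 9.31 CPM under I-BET762, and KHK 47.6 and 49.7 CPM under Vorinostat and 2.97 to 10.5 CPM under I-BET762. ENTPD2 fell below the filter of that fit and could not be compared there. Panobinostat, Quisinostat and Vorinostat each hold 1 position per plate, so compound and position cannot be told apart for them.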
